A study of Rattus norvegicus with 9 samples.

Results

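The genes described here are 9 markers of the red cell lineage, Hbb, Ahsp, Alas2, Tfrc, Slc4a1, Epb42, Gata1, Klf1 and Hemgn, measured in rat femoral fracture tissue. They were taken by symbol from a gene count table of 35360 genes, in which each of the 9 symbols had 1 protein-coding entry. Of the 9 genes, 8 had enough counts to enter the tests with 15460 genes in all, and Gata1 did not. The tissue, labelled as the middle end of a femoral fracture, came from 3 groups of 3 poly-A RNA-seq libraries. The Gel group (Control1 to Control3 in the labels) received the gel alone. The ALN+Gel group, written ALN gel here, received the gel with ALN, a bisphosphonate, which is a class of drug that slows bone resorption. The Mg-ALN@Gel group (BiMOF in the labels), written Mg-ALN gel here, received the gel with the magnesium-ALN metal-organic framework that the study designed as a bone adhesive. The labels describe the fractures as osteoporotic only in the study's title, and give no strain, age, sex or time after fracture for any group. They do not say whether the 3 libraries of a group came from separate animals, so p-values measure only the spread between these libraries, which may be technical.

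Red cells form in the marrow from erythroblasts, which fill with haemoglobin, build a membrane skeleton and finally lose the nucleus. Young red cells released to the blood, the reticulocytes, still carry globin messenger RNA, while the transcription factors mark the earlier marrow stages more strongly. A fracture opens the marrow cavity and forms a blood clot, so fracture tissue can hold marrow, clot and circulating blood besides bone and callus.

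The promoters of these genes are shown because 7 of the 8 genes tested varied together between libraries and because Gata1 and Klf1, the transcription factors of the set, bind DNA with known letter preferences. GATA-family factors bind letters such as AGATAA, and Klf1 and its relatives bind C-rich letters. RefSeq (GRCr8) gave a promoter for 7 of the 9 genes, with 2 start sites for Hemgn; Ahsp and Slc4a1 had no entry. Each sequence is the 250 bases before the RefSeq start site, 5′ to 3′ on the gene's strand, with capitals for a match to the KLF motif, spelled CCNCNCCC, or to the GATA motif, spelled AGATAA or AGATAG in 1 form and TGATAA or TGATAG in the other, searched on both strands.
Hbb, chr1:167663722-167663971 (minus strand), KLF motif: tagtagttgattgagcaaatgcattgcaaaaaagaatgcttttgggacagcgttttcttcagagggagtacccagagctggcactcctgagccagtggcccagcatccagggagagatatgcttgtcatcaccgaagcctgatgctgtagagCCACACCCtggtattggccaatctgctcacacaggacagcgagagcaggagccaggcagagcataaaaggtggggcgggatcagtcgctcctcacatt
Alas2, chrX:22895200-22895449 (plus strand), GATA motif: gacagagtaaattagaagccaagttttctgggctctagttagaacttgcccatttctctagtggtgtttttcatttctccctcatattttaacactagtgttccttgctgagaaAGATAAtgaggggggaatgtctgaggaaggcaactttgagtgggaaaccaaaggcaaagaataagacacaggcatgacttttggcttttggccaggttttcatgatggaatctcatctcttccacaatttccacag
Epb42, chr3:128451684-128451933 (minus strand), GATA motif: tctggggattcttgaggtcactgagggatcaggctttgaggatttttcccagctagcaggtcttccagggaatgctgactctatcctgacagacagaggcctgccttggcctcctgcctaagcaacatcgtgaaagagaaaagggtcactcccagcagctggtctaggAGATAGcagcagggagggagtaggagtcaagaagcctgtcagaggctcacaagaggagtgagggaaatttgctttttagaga
Klf1, chr19:40158652-40158901 (minus strand), GATA motif: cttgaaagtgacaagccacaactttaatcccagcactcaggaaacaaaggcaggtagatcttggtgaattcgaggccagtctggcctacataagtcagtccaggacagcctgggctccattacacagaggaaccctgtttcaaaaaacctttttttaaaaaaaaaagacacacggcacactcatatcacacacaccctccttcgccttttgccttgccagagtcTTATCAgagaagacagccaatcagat
Hemgn, second start site, chr5:65485822-65486071 (minus strand), GATA motif: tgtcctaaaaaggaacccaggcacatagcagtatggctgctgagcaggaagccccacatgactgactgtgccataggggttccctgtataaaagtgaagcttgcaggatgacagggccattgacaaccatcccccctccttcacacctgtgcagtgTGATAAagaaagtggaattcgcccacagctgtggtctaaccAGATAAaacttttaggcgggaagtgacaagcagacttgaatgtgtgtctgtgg
Tfrc, chr11:81690319-81690568 (minus strand), KLF motif: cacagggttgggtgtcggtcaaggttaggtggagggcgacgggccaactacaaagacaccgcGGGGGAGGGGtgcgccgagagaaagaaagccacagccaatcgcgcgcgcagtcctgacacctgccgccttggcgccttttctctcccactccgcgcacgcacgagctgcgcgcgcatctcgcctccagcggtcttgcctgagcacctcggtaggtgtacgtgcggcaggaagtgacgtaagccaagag
The GATA match lay 136 bases before the start of Alas2, 82 before that of Epb42 and 26 before that of Klf1. The second Hemgn promoter held 2 GATA matches, 94 and 53 bases before the start. The KLF match of Hbb, CCACACCC, lay 98 bases before the start, and the capitals in Tfrc are 2 overlapping KLF matches on the opposite strand. Of the windows not printed, that of Gata1 held 3 KLF matches and the first Hemgn window 1. The same letters are common in the table: the GATA motif was found in 27.0% and the KLF motif in 42.8% of 33469 promoter windows of this length. A match is a description of the letters and does not show that a factor binds there.

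Library totals ranged from 13388689 to 18763270 counts. Levels are given as CPM, the count of a gene relative to its library's size after scaling by edgeR's TMM method, which serves to compare 1 gene between libraries. The deposited FPKM, which divides counts by gene length and by a library constant, serves to compare genes with each other. The mitochondrial share of counts ranged from 4.16% to 39.5%. The bone and callus list (14 genes, led by the collagen gene Col1a1) summed to between 38100 and 127000 CPM in the 9 libraries. Col1a1 had at least 10800 CPM in each library. Single genes of the list were low in some libraries, chosen here after their values were seen: Bglap, the osteocalcin gene, had 3.45 CPM in Mg-ALN gel library 2 and 185 to 2290 CPM elsewhere, and the cartilage collagen gene Col2a1 had 0.113 to 0.953 CPM in Gel library 2 and the 3 Mg-ALN gel libraries and 20.4 to 305 CPM elsewhere. In bulk tissue, more erythroid cells and more erythroid RNA per cell cannot be told apart.

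Hbb and Tfrc were the most abundant of the 9 genes and Gata1 was nearly absent. By median FPKM over the 9 libraries the order was Hbb (1810), Tfrc (138), Ahsp (48.8), Alas2 (10.2), Klf1 (6.59), Hemgn (3.86), Slc4a1 (3.04), Epb42 (1.45) and Gata1 (0). Each of the genes from Ahsp to Epb42 in that order spanned a wider range over libraries than the step to its neighbour. These genes varied together, however, so their order has to be read within each library. Slc4a1 lay above Epb42 in all 9 libraries, for instance at 18.56 against 4.08 FPKM in Gel library 1. Other neighbours changed places: Hemgn lay below Slc4a1 in Gel library 1 (11.15 against 18.56 FPKM) and above it in Mg-ALN gel library 1 (3.862 against 3.045 FPKM). The plot of levels by library shows the pattern that the rest of the values turn on: 7 genes varied by 61.5-fold or more between the highest and the lowest library, and Tfrc by 2.7-fold.

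**Figure D1:**
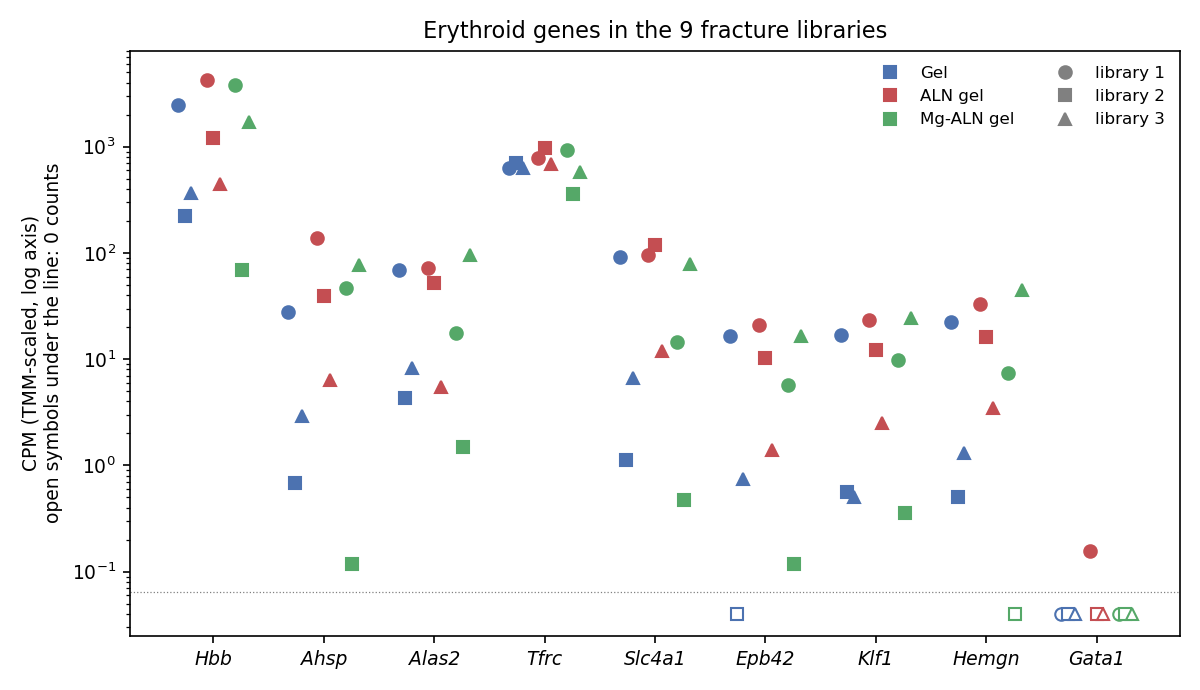
Level of each of the 9 erythroid genes in the 9 libraries, in CPM on TMM-scaled library sizes (log axis); colour gives the group, symbol shape the library number, and open symbols under the dotted line are libraries with 0 counts. For each of the 8 tested genes the points of the 3 groups overlap; Tfrc stays between 361 and 976 CPM.

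Hbb, which encodes an adult beta chain of haemoglobin, lies on chromosome 1 (168971274 to 168972725, minus strand, in the coordinates of the deposited table, whose build is not given in the sources used here). Its level was 2451, 224 and 366 CPM in Gel libraries 1 to 3, 4278, 1219 and 442 CPM in ALN gel libraries 1 to 3, and 3833, 69.6 and 1699 CPM in Mg-ALN gel libraries 1 to 3. Library 1 was the highest of each group, the lowest library of all was Mg-ALN gel library 2, and the groups overlapped. The highest library exceeded the lowest 61.5-fold. Group means (SD, n = 3) were 1010 ± 1250 CPM for Gel, 1980 ± 2030 CPM for ALN gel and 1870 ± 1890 CPM for Mg-ALN gel. The log2 fold change of ALN gel against Gel was 0.97 ± 1.33 (SE; edgeR quasi-likelihood test, Benjamini-Hochberg adjusted p = 0.904). Hbb alone made up between 0.00772% (Wilson 95% interval 0.00729% to 0.00818%, counting error only) and 0.354% (0.351% to 0.357%) of all counts of a library.

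Ahsp encodes the chaperone that holds free alpha globin until it pairs with a beta chain (chromosome 1, 199720038 to 199721010, plus strand). It was measured at 27.8, 0.677 and 2.95 CPM in Gel libraries 1 to 3, at 138, 39.2 and 6.32 CPM in ALN gel libraries 1 to 3, and at 46.7, 0.119 and 77.8 CPM in Mg-ALN gel libraries 1 to 3. The lowest value rests on 2 counts, against 1774 counts in ALN gel library 1. Gel library 1 lay above ALN gel library 3, so the groups overlapped here too. Ahsp had the largest fold change of the 8 tested genes in ALN gel against Gel, with a log2 value of 2.55 ± 1.76 (SE; edgeR adjusted p = 0.758). Its means (SD, n = 3) were 10.5 ± 15.1 CPM for Gel, 61.0 ± 68.3 CPM for ALN gel and 41.5 ± 39.1 CPM for Mg-ALN gel.

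The other globin genes of the table show which haemoglobin these libraries held. The adult alpha genes Hba-a1 and Hba-a2 ranged from 2374 to 64694 and from 1025 to 32348 counts. The embryonic or fetal genes Hbg1, Hbe2 and Hbz had 0 counts in all 9 libraries, and Hbe1 had at most 9 counts. Globin counts here are those of Hba-a1, Hba-a2, Hba-a3, Hbb, LOC100134871, Hbb-b1, LOC103694857 and LOC103694855. Hbq1a, with at most 127 counts in a library, and Hbe1 were left out. Together the globin counts made 0.817%, 0.0696% and 0.141% of counts for Gel libraries 1 to 3, 0.896%, 0.541% and 0.17% for ALN gel libraries 1 to 3, and 0.715%, 0.0397% and 0.792% for Mg-ALN gel libraries 1 to 3. These shares were high in the same 5 libraries that were high for Hbb.

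Within the 5 beta-like genes that had counts (Hbb, LOC100134871, Hbb-b1, LOC103694857 and LOC103694855), the share of Hbb differed between libraries. It was 73.6%, 74.0% and 70.8% for Gel libraries 1 to 3, 73.5%, 53.5% and 70.1% for ALN gel libraries 1 to 3, and 90.1%, 45.4% and 51.8% for Mg-ALN gel libraries 1 to 3. The widest Wilson 95% interval, 43.5% to 47.4%, belonged to Mg-ALN gel library 2. The 3 Gel libraries and ALN gel libraries 1 and 3 lay close together, between 70.1% and 74.0%. ALN gel library 2 lay below that range, and the 3 Mg-ALN gel libraries lay outside it on both sides. These genes are near-identical copies, so how the counting assigned reads between them is uncertain, and the part of that in these shares was not tested. The ratio of alpha to beta FPKM ranged from 0.974 in Mg-ALN gel library 1 to 2.2 in Mg-ALN gel library 3.

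Alas2, the erythroid enzyme of the first step of haem synthesis, lies on chromosome X (23167696 to 23187341, minus strand). Its level was 68.5, 4.29 and 8.21 CPM in Gel libraries 1 to 3, 71.7, 51.6 and 5.47 CPM in ALN gel libraries 1 to 3, and 17.8, 1.49 and 95.3 CPM in Mg-ALN gel libraries 1 to 3. The highest and the lowest library of all 9 were both from the Mg-ALN gel group, 64.0-fold apart. ALN gel against Gel gave a log2 fold change of 0.67 ± 1.42 (SE; edgeR adjusted p = 0.945).

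Tfrc, the transferrin receptor, brings iron into erythroblasts but also into dividing and other cells (chromosome 11, 71397383 to 71419223, minus strand). It stood at 634, 704 and 625 CPM in Gel libraries 1 to 3, at 775, 976 and 685 CPM in ALN gel libraries 1 to 3, and at 941, 361 and 577 CPM in Mg-ALN gel libraries 1 to 3. Its highest library exceeded its lowest 2.7-fold, and it did not follow the order of libraries of the other members. ALN gel library 3 lay below Gel library 2, so the groups overlapped. Tfrc was the only gene with a group difference above the larger SD: the means of 812 ± 149 CPM in ALN gel and 654 ± 43.1 CPM in Gel (SD, n = 3) were 158 apart. The other 23 of 24 differences between group means of the 8 genes lay within the larger SD of the pair. The log2 fold change of Tfrc was 0.31 ± 0.35 (SE; edgeR adjusted p = 0.869).

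Slc4a1 encodes band 3, the anion exchanger that anchors the red cell membrane to its skeleton (chromosome 10, 90296141 to 90312386, minus strand). It was found at 91.8, 1.13 and 6.65 CPM in Gel libraries 1 to 3, at 95.3, 119 and 12.0 CPM in ALN gel libraries 1 to 3, and at 14.7, 0.477 and 78.8 CPM in Mg-ALN gel libraries 1 to 3. ALN gel had 2 libraries of high level and the other groups 1 each, and all 3 groups overlapped over a 249-fold range. Slc4a1 had the lowest fold change in Mg-ALN gel against ALN gel, with a log2 value of -1.26 ± 1.66 (SE; edgeR adjusted p = 0.831). Epb42 encodes protein 4.2, which binds band 3 to ankyrin (chromosome 3, 112965653 to 112985318, minus strand). Its counts were 234, 0 and 12 in Gel libraries 1 to 3, 271, 163 and 23 in ALN gel libraries 1 to 3, and 73, 2 and 258 in Mg-ALN gel libraries 1 to 3. ALN gel library 1, at 21.0 CPM, was at least 124-fold higher than Gel library 2, taken at the limit of 3 counts that a count of 0 allows. Epb42 was highest in the same 5 libraries as Slc4a1.

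Klf1 is the transcription factor that activates the adult beta globin gene (chromosome 19, 26016382 to 26019553, plus strand). It had 17.0, 0.564 and 0.502 CPM in Gel libraries 1 to 3, 23.4, 12.2 and 2.49 CPM in ALN gel libraries 1 to 3, and 9.93, 0.357 and 24.3 CPM in Mg-ALN gel libraries 1 to 3. Gel libraries 2 and 3 and Mg-ALN gel library 2 stood on 6 to 10 counts each, whereas every ALN gel library had at least 41 counts. Hemgn encodes hemogen, a nuclear protein of blood precursors (chromosome 5, 62005071 to 62025152, minus strand). Its counts were 312, 9 and 21 in Gel libraries 1 to 3, 424, 258 and 57 in ALN gel libraries 1 to 3, and 95, 0 and 707 in Mg-ALN gel libraries 1 to 3. Both genes had their highest library in Mg-ALN gel library 3 and their lowest in Mg-ALN gel library 2, and for Hemgn the first was at least 251-fold higher than the limit of 3 counts in the second. The log2 fold change of ALN gel against Gel was 1.08 ± 1.53 for Klf1 and 1.13 ± 1.74 for Hemgn (SE; edgeR adjusted p = 0.907 and 0.918).

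Gata1, the master transcription factor of the lineage, was listed on chromosome X (15273933 to 15281759, plus strand). It had 2 counts in ALN gel library 1 and 0 in the other 8 libraries, where the limit of 3 counts corresponds to between 0.169 and 0.236 CPM. A second entry, LOC108348091 (chromosome X, 15378789 to 15382066, plus strand), which the table also describes as an erythroid transcription factor, had 8 counts in that same library and 0 elsewhere. Both entries carry the same protein match, so reads shared between near-identical copies could have been split or dropped, and the Gata1 level of this tissue is uncertain. Its absence from the tests therefore says nothing of its expression.

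No member passed the test in any comparison. In ALN gel against Gel, edgeR called 0 of the 8 tested members and 0.0% of the 15460 genes at an adjusted p under 0.05; at an unadjusted p under 0.05 it was 0 members and 1268 genes, or 8.2%. DESeq2 and limma-voom called 0 members too, and 95 and 263 genes of the whole table. All 8 log2 fold changes were above 0, against 49.8% of all genes tested, with a median of 1.02 for the members and -0.00142 for all genes. The members share libraries and vary together, so these 8 signs are not 8 independent observations. No member separated the groups without overlap, while 11.1% of all genes were higher and 5.03% lower without overlap. The median rested on single libraries: leaving out ALN gel library 1 gave 0.30, and leaving out Gel library 1 gave 4.27. Single members moved as far, Klf1 from 0.30 to 4.55 and Epb42 from 0.012 to 4.85 with these libraries left out in turn.

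The means of the Mg-ALN gel and ALN gel groups lay within the larger SD of the pair for all 8 tested members. In Mg-ALN gel against ALN gel, edgeR called 0 of 8 members and 0.0% of all genes, and 0 members against 9.19% of all genes had an unadjusted p under 0.05. The log2 fold changes of the members lay between -1.26 (Slc4a1) and -0.00152 (Hemgn), with a median of -0.27, and 0 of 8 were above 0 against 46.4% of all genes. The edgeR adjusted p ran from 0.755 to 1, and DESeq2 and limma-voom called 0 members, with 166 and 2 genes of the whole table. Leaving out ALN gel library 1 turned the median to 0.53, and leaving out Mg-ALN gel library 2 turned it to 0.24. None of the 8 separated these groups, against 6.76% of all genes higher and 9.77% lower without overlap.

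In Mg-ALN gel against Gel, edgeR again called 0 of 8 members and 0.0% of all genes, with 0 members and 9.31% of all genes at an unadjusted p under 0.05. Of the 8 log2 fold changes 6 were above 0, against 47.7% of all genes, and the median was 0.69, with Ahsp highest at 1.99 ± 1.73 (SE; edgeR adjusted p = 0.705). By DESeq2 and limma-voom 0 members were called, with 48 and 0 genes of the whole table. Tfrc and Slc4a1 lay just under 0, at -0.06 ± 0.35 and -0.08 ± 1.64. Without Mg-ALN gel library 3 the median was -0.61 and without Gel library 1 it was 3.64. No member separated the groups, against 9.76% of genes higher and 8.56% lower. This comparison shares its Gel libraries with the first and its Mg-ALN gel libraries with the second, so the 3 sets of values are not independent. A joint test of any difference among the 3 groups called 0 of 8 members (adjusted p from 0.744 to 0.96 by edgeR) and 0.0% of all genes, with 9.29% of genes at an unadjusted p under 0.05; DESeq2 and limma-voom called 0 members and 190 and 28 genes.

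**Figure D2:**
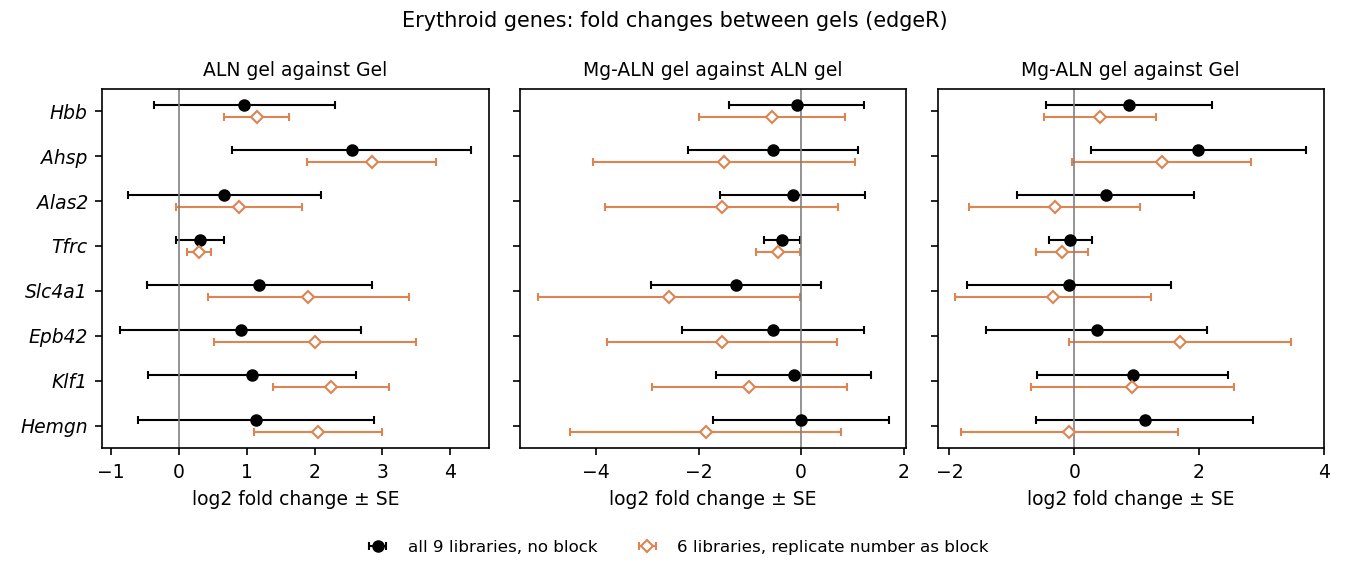
Fitted log2 fold changes of the 8 tested erythroid genes in the 3 comparisons, with bars of 1 SE; filled points are from all 9 libraries and open points from the 6 libraries compared with the replicate number as a block. The block was chosen after seeing the data. In ALN gel against Gel all points lie above 0, and the bars of all 8 genes are shorter with the block. For Ahsp the SE is 0.951 with the block, 1.76 from all 9 libraries and 1.49 from the 6 libraries without a block. In Mg-ALN gel against ALN gel the bars are longer with the block, at 2.56 against 1.66 for Ahsp.

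The libraries carry the numbers 1 to 3 in each group, and over all genes tested the Gel and ALN gel libraries with the same number deviated together from their group means (correlations of 0.341, 0.419 and 0.226). Within these numbers, ALN gel was higher than Gel in all 3 pairs for 7 of the 8 members, the exception being Alas2, as for 22.9% of all genes; none was lower in all 3, against 17.3% of all genes. This count was made after the values had been seen. A block on the number was likewise chosen after the data were seen, because same-numbered libraries correlated, and the labels name no pairing. Its SEs and p-values thus come from a model picked on the same data. With this block in the 6 Gel and ALN gel libraries, the log2 fold change was 2.84 ± 0.95 for Ahsp, 2.24 ± 0.86 for Klf1 and 1.15 ± 0.48 for Hbb (SE, with edgeR adjusted p = 0.295, 0.334 and 0.363). Ahsp and Klf1 had an unadjusted p under 0.05 (0.0322 and 0.0493), which is 2 of 8 members against 14.9% of all genes, and no member passed the adjusted threshold. The same numbers did not pair the Mg-ALN gel libraries with either other group, and no member was higher, or lower, in all 3 number-matched pairs of those comparisons. Over all genes, 14.4% were higher and 20.1% lower in every pair for Mg-ALN gel against ALN gel. For Mg-ALN gel against Gel these shares were 17.5% and 16.9%. With the block, 0 members had an unadjusted p under 0.05 in either comparison by edgeR, against 8.47% and 5.85% of all genes in that order.

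For 7 of these genes, libraries of the same group differed by a larger factor than the group means did. Hbb, Ahsp, Alas2, Slc4a1, Epb42, Klf1 and Hemgn all had the same 5 highest libraries, Gel library 1, ALN gel libraries 1 and 2, and Mg-ALN gel libraries 1 and 3. For Slc4a1 the lowest of these, Mg-ALN gel library 1, stood only 1.22-fold above the next, ALN gel library 3. Mg-ALN gel library 2 was the lowest for 6 of the 7, and for Epb42 the lowest was Gel library 2. The SD of log2 CPM over the 9 libraries was larger for these 7 genes than for between 92.6% (Hbb) and 99.6% (Hemgn) of all genes tested, but for Tfrc larger than for only 35.2%. The biological coefficient of variation, edgeR's estimate of the spread between libraries of a group beyond counting error, was 102% to 144% for the 7 and 34.4% for Tfrc, with a median over genes of 39.4%.

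The erythroid genes did not keep a fixed ratio to the globins. Ahsp, Alas2, Slc4a1, Epb42, Klf1 and Hemgn together gave 30.0, 11.4 and 17.2 counts per 1000 globin counts in Gel libraries 1 to 3, 32.6, 46.0 and 20.8 in ALN gel libraries 1 to 3, and 13.2, 7.17 and 35.7 in Mg-ALN gel libraries 1 to 3. Mg-ALN gel library 1 had the second highest Hbb level but only 1.89 Slc4a1 and 2.3 Alas2 counts per 1000 globin counts, against 8.35 and 10.1 in Mg-ALN gel library 3. Its Ahsp was not low in this way, with 6.02 counts per 1000 globin counts against 3.42 in Gel library 1 and 7.26 in ALN gel library 2. ALN gel library 2 lay at the other end, with 22.0 Slc4a1 counts per 1000 globin counts. The groups overlapped in this ratio, and no test was made of it.

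**Figure D3:**
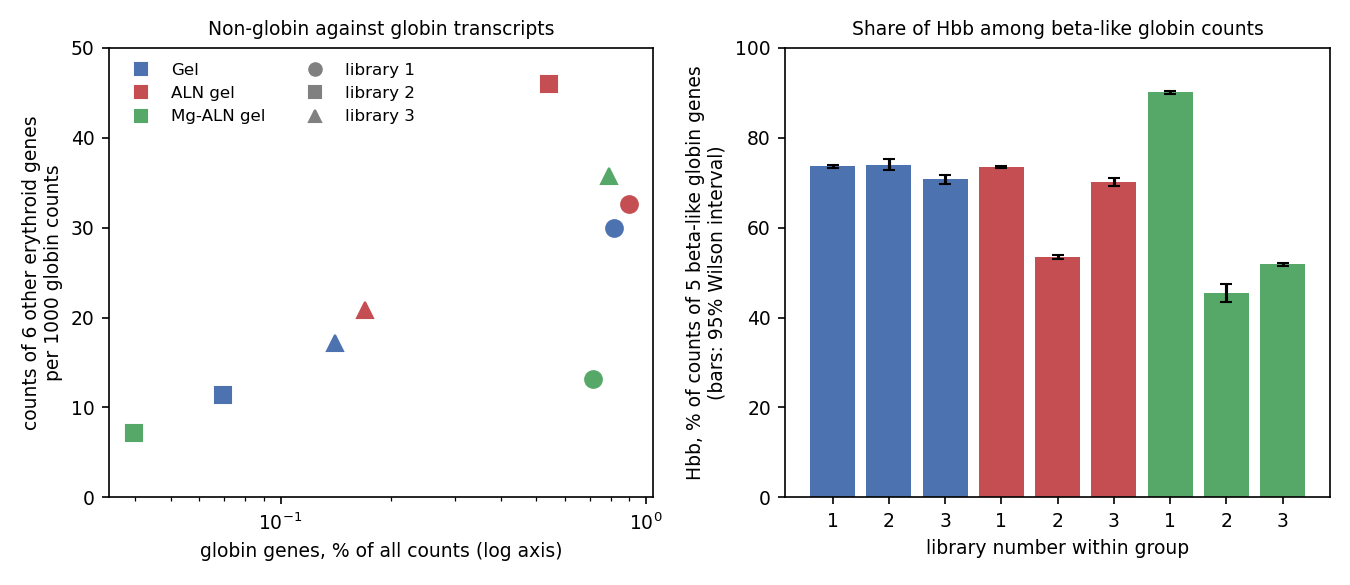
Left, summed counts of Ahsp, Alas2, Slc4a1, Epb42, Klf1 and Hemgn per 1000 globin counts against the globin share of all counts (log axis) in each library; right, share of Hbb among the counts of 5 beta-like globin genes, with Wilson 95% intervals. Mg-ALN gel library 1 lies low on the left at 13.2 despite a globin share of 0.715%, and has the highest Hbb share on the right at 90.1%.

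The genes whose pattern over the 9 libraries was most like that of the members were other red cell genes. Likeness was the Pearson correlation of log2 CPM with the mean centred log2 CPM of the 8 tested members, over 9 libraries that share depth and scaling, among 13100 genes with at least 1 CPM on average; it is a description. Among the 10 highest protein-coding genes outside the members were Hba-a1 (0.991), Hbb-b1 (0.989), Hba-a2 (0.987), Add2 (0.983), Hbq1a (0.98), Lgals5 (0.98), Car1 (0.975), Kel (0.965) and Trim10 (0.964). Add2 encodes an adducin chain of the membrane skeleton, Kel a blood group antigen, and Car1 a carbonic anhydrase abundant in red cells. Among the members themselves the correlation was 0.945 to 0.987 for 7 genes, each of which is part of the mean, and 0.604 for Tfrc.

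Wider lists of red cell genes, like the 8 lists for other cells, gave 0 called genes in each comparison by edgeR. In ALN gel against Gel, the log2 fold change was above 0 for 6 of 6 haemoglobin genes (median 1.02), 18 of 21 genes of haem synthesis and iron handling (0.43), 18 of 21 membrane genes (0.72), 15 of 20 genes of late maturation (0.36) and 7 of 15 transcription factor and receptor genes (-0.17). These lists include the members, and all but the globin list also hold genes that many other cells express. Among the most abundant of them, Ncoa4, the receptor that delivers ferritin for breakdown, had 138 ± 2.04 CPM for Gel, 186 ± 27.2 CPM for ALN gel and 122 ± 14.2 CPM for Mg-ALN gel (SD, n = 3). Its edgeR adjusted p was 0.611 for ALN gel against Gel and 0.496 for Mg-ALN gel against ALN gel. Bsg, the membrane protein basigin, had 351 ± 66.6, 526 ± 66.6 and 409 ± 74.5 CPM in the same order. Aqp1, the water channel of red cells and of vessel walls, had 297 ± 81.1, 466 ± 302 and 277 ± 80.8 CPM. Lmo2, which joins Gata1 and Tal1 complexes, had 46.3 ± 14.7, 65.5 ± 13.8 and 75.7 ± 17.6 CPM. Car2, a carbonic anhydrase of red cells and osteoclasts, had 184 ± 198, 634 ± 381 and 195 ± 95.1 CPM. The genes just named had a higher mean in ALN gel than in Gel, but other abundant genes of these lists had a lower one. Slc2a1 had 167 ± 169, 50.5 ± 29.9 and 142 ± 68.5 CPM, and Ldb1 had 85.1 ± 7.48, 75.9 ± 13.8 and 92.6 ± 6.1 CPM. Tcf3 had 92.4 ± 42.4, 74.6 ± 20.8 and 80.9 ± 5.25 CPM, and Cat had 77.4 ± 9.35, 75.9 ± 12.5 and 73.7 ± 16.8 CPM. In Mg-ALN gel against ALN gel the counts above 0 for the 5 lists were 1 of 6, 7 of 21, 3 of 21, 4 of 20 and 7 of 15, and in Mg-ALN gel against Gel they were 6 of 6, 15 of 21, 13 of 21, 12 of 20 and 8 of 15, in the same order.

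Some markers of other marrow cells were highest in the same 5 libraries as the erythroid genes. This held for 4 of 9 tested B lineage genes (Pax5, Cd79b, Igll1 and Dntt) and 4 of 11 tested neutrophil precursor and granule genes (Camp, Mpo, Ngp and Ctsg), against 1.84% of all 15460 genes tested. These genes were picked out after their values had been seen. Mpo, the granule enzyme myeloperoxidase, stood at 14.4, 0.959 and 8.4 CPM for Gel libraries 1 to 3, 55.9, 20.3 and 12.3 CPM for ALN gel libraries 1 to 3, and 30.6, 0 and 83.0 CPM for Mg-ALN gel libraries 1 to 3. Like most of the erythroid genes, all of these but Dntt were lowest in Mg-ALN gel library 2. The same 5 libraries were highest for 1 of 7 platelet genes (Gp6), 1 of 11 macrophage genes (Maea), 1 of 14 bone genes (Bglap), and no mast cell, dividing cell or skeletal muscle gene. For the red cell lists, members included, it was 5 of 6 haemoglobin, 6 of 21 haem synthesis, 8 of 21 membrane, 3 of 15 transcription factor and 6 of 20 late maturation genes. Other abundant neutrophil genes ran the other way within Gel, with library 1 lowest. In Gel libraries 1 to 3, S100a9 had 56.5, 610 and 342 CPM, S100a8 35.1, 272 and 152 CPM, and Mmp8 8.68, 65.6 and 30.3 CPM. Mmp9 had 2620, 682 and 352 CPM there. Outside Gel, S100a9, S100a8 and Mmp8 had the same lowest library of each group as the tested erythroid genes. In ALN gel libraries 1 to 3, S100a9 had 234, 213 and 31.5 CPM, S100a8 159, 132 and 26.1 CPM, and Mmp8 19.9, 26.7 and 2.98 CPM. In Mg-ALN gel libraries 1 to 3 they had 4530, 339 and 1010 CPM, 3420, 174 and 665 CPM, and 194, 13.6 and 89.6 CPM in that order.

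The plot of marker lists shows the summed levels, in which the values of single genes cannot be seen. The summed level of 10 B lineage genes was 271, 34.8 and 52 CPM for Gel libraries 1 to 3, 234, 59.6 and 56.7 CPM for ALN gel libraries 1 to 3, and 31.8, 42.1 and 205 CPM for Mg-ALN gel libraries 1 to 3. That sum, in which Ebf1 had the highest mean, was high in 3 of the 5 libraries with high erythroid genes and low in Mg-ALN gel library 1. Ebf1 itself did not follow these 5 libraries. It had 63.8, 21.0 and 39.6 CPM in Gel libraries 1 to 3 and 47.0, 24.3 and 51.8 CPM in ALN gel libraries 1 to 3. In Mg-ALN gel libraries 1 to 3 it had 14.2, 40.7 and 39.9 CPM. The mitochondrial share was 17.47%, 5.403% and 4.16% for Gel libraries 1 to 3, 39.5%, 15.58% and 7.614% for ALN gel libraries 1 to 3, and 11.24%, 10.56% and 31.59% for Mg-ALN gel libraries 1 to 3, with the 5 highest shares in the same 5 libraries. Neutrophil genes (12 genes) summed to 923 to 2780 CPM for Gel, 5340 to 8450 CPM for ALN gel and 2730 to 8990 CPM for Mg-ALN gel, a sum that Mmp9, also an osteoclast gene, led. Mast cell genes (10 genes) summed to 37.6 to 460, 127 to 308 and 19.4 to 81.4 CPM in these groups, platelet genes (11 genes) to 352 to 793, 77.1 to 428 and 410 to 869 CPM, and iron-recycling macrophage genes (12 genes) to 895 to 2170, 1010 to 1660 and 948 to 2200 CPM. Dividing cell genes (13 genes) summed to 306 to 697, 348 to 689 and 338 to 608 CPM. Skeletal muscle genes (10 genes) summed to 7.62 CPM in Mg-ALN gel library 3 and to 10100 CPM in Gel library 3, a library that was low for the erythroid genes. Of these lists, the platelet gene Gp1bb and the macrophage iron exporter Slc40a1 had 0 counts in every library. Whether these genes were not expressed or their entries collected no reads was not tested. The part of these cell types, of the mitochondrial share and of the amount of marrow or blood in the tissue in the erythroid values was not tested.

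**Figure D4:**
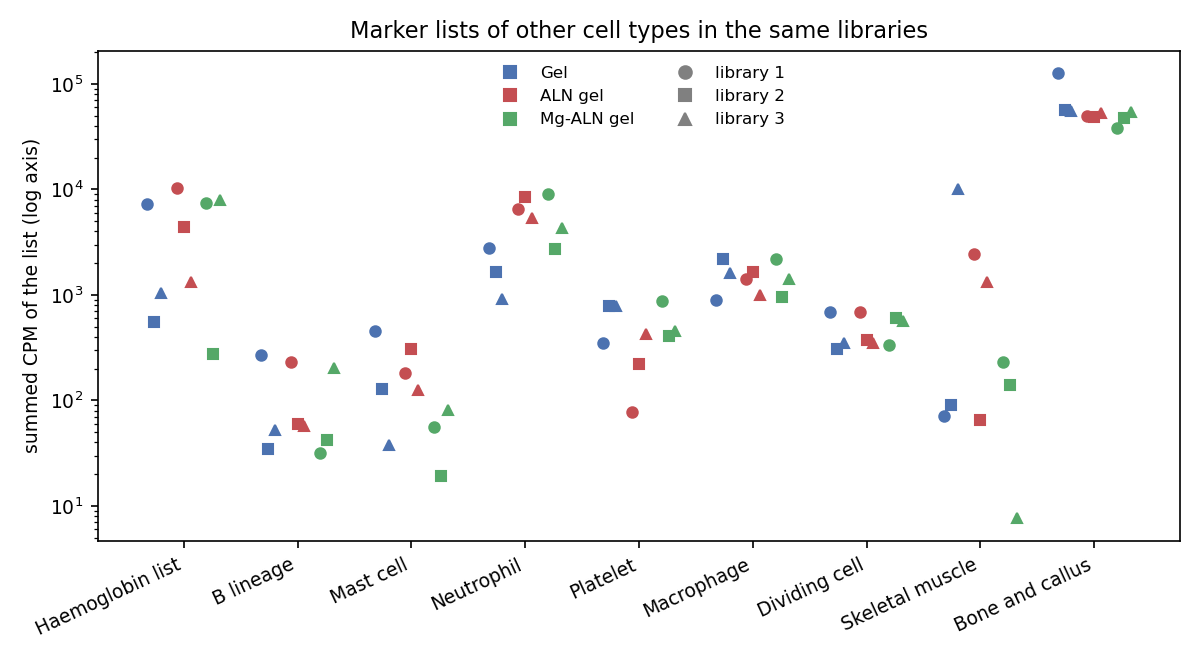
Summed CPM (log axis) of the haemoglobin list and of 8 marker lists for other cells in each of the 9 libraries; colour gives the group and symbol shape the library number. The haemoglobin list spans 278 to 10400 CPM and the bone and callus list 38100 to 127000 CPM, while skeletal muscle genes are highest in Gel library 3 at 10100 CPM.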

How the data were processed

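Gene counts for 35360 genes and matching FPKM values of 9 libraries were used as deposited by the authors; FPKM equalled count divided by gene length and by a library constant of 0.804 to 1.19 times the library total. Tools listed without roles in the submitters' processing notes are featureCounts 1.5.0-p3, HISAT2 2.0.5, fastp, edgeR 3.22.5, StringTie 1.3.3b and DESeq2 1.20.0; the build and the strand setting of the counting are not given in the sources used here. No member overlaps another gene of the table, while globin and Gata1 copies may share reads.

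The counts as deposited were tested with edgeR 4.0.16 (R 4.3.3) after filterByExpr and TMM scaling: a quasi-likelihood test of 15460 genes over all 9 libraries, with Benjamini-Hochberg adjustment over all of them and a threshold of 0.05. The code was tested on simulated data. log2 CPM used a prior count of 0.5. Alternatives were RLE scaling, no filter, DESeq2 1.42.0, limma-voom (limma 3.58.1) with quality weights, only the 6 libraries compared, a replicate block, library sizes without 13 haemoglobin and 37 mitochondrial genes, and each library left out. Library totals were 13388689 to 18763270 counts. Counting error depends on a gene's own counts and was small beside the spread between libraries for genes with many counts. It was larger for member values on few counts, such as 0 for Epb42 in Gel library 2 and 2 for Ahsp in Mg-ALN gel library 2.

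Libraries were grouped by their titles, and their numbers come from the same titles. Same-numbered libraries of Gel and ALN gel deviated together (correlations of 0.341, 0.419 and 0.226), while those of Mg-ALN gel and either other group did not in every pair (-0.199 to 0.13), so the block is reported for ALN gel against Gel. No pair of libraries was alike within sampling noise (lowest chi-square per degree of freedom 72.3).

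The members and the 13 gene lists (194 entries, of which 179 matched by symbol, 4 through the RefSeq table and 11 not) were chosen with earlier results of these data known. Genes are named by rule: the members, up to 4 of the most abundant genes of a list, the 10 genes most like the members, and the globin genes. Slc40a1, Gp1bb, Bglap, Col2a1 and the marrow cell genes highest in the same libraries as the members are singled out for their values. Of the 10 most alike genes, 1 is not reported here.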

Additional observations from a re-analysis of the deposited data

How the results depend on the processing

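No member passed the adjusted threshold under any of the 17 settings. The lowest adjusted p of a member was 0.26 for ALN gel against Gel, 0.232 for Mg-ALN gel against ALN gel and 0.457 for Mg-ALN gel against Gel, each with limma-voom. Of 408 alternative values for single members, 369 kept their direction and 39 did not, 1, 23 and 15 in these comparisons; the cause was not tested. Counts of genes called over the whole table depended on the tool: in place of 0 by edgeR, DESeq2 called 95, 166 and 48 genes in these comparisons and 190 in the joint test, and limma-voom called 263, 2 and 0, and 28 in the joint test. Leaving out 1 library gave 0 to 1 called genes in ALN gel against Gel and in the joint test, the 1 without ALN gel replicate 3, and 0 in the other comparisons.

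The members' median log2 fold change in ALN gel against Gel was 3.54 with limma-voom and 0.30 to 4.27 with 1 library left out. In the other comparisons, in the order above, it was -1.64 to 0.53 and -0.61 to 3.64. With 1 library left out, the log2 fold change of Hbb in ALN gel against Gel was -0.28 to 2.74; it was 1.13 to 5.07 for Ahsp, 0.088 to 2.78 for Alas2, 0.080 to 0.37 for Tfrc, 0.60 to 4.28 for Slc4a1, 0.012 to 4.85 for Epb42, 0.30 to 4.55 for Klf1 and 0.30 to 4.26 for Hemgn. In Mg-ALN gel against ALN gel the ranges were -1.39 to 0.86 (Ahsp), -2.16 to 0.42 (Alas2), -1.90 to 0.35 (Epb42), -1.16 to 1.16 (Hbb), -2.24 to 0.83 (Hemgn) and -1.31 to 0.64 (Klf1). In Mg-ALN gel against Gel they were -1.49 to 2.61 (Alas2), -0.99 to 4.30 (Epb42), -0.19 to 2.66 (Hbb), -1.11 to 4.26 (Hemgn), -0.23 to 4.41 (Klf1), -2.14 to 3.01 (Slc4a1) and -0.48 to 0.19 (Tfrc). Hemgn in Mg-ALN gel against ALN gel was 0.022 with RLE scaling, 0.016 with no filter, 0.020 with DESeq2, 0.025 without haemoglobin and mitochondrial genes in the library size and 0.0018 with the 6 libraries compared, but -3.39 with limma-voom and -1.05 with the replicate block. Slc4a1 in Mg-ALN gel against Gel was 0.84 with limma-voom.

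With the replicate number as a block over all 9 libraries, the members' median in ALN gel against Gel was 2.45, and Slc4a1 in Mg-ALN gel against Gel was 0.50. With the replicate block in the 6 libraries compared, an alternative chosen after seeing the data, the medians were 1.96, -1.52 and 0.17, and Alas2 and Hemgn in Mg-ALN gel against Gel were -0.31 and -0.082. The block changed no call.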
